A study of Homo sapiens with 12 samples.

Results

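The genes described are 3 MEF2 transcription factors, MEF2A, MEF2C and MEF2D, and the 4 class IIa histone deacetylases that bind them, HDAC4, HDAC5, HDAC7 and HDAC9. They were chosen by name, 7 of the 17303 genes in the deposited table, after MEF2C had been seen at a higher level with each of 3 hairpins than with the control. The hairpin against control values of MEF2C therefore led to the choice, and the values of all 7 genes in those comparisons are given as a description, with no test of a single gene. A count of calls from the fit over all genes is printed only beside the share of all genes called, and nothing is read from it. All 7 passed the filter on low counts. MEF2C had 6, 6 and 4 reads in the controls, under the filter's minimum count of 10, and passed only through the hairpin libraries.

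Bulk RNA-seq was made from SNU638 cells, a line established from human gastric cancer, with the genotype labelled wt in every sample. A stable line with a control hairpin (sh-control) was compared with 3 stable lines carrying a short hairpin RNA against SKA2 (sh-SKA2-1, sh-SKA2-2 and sh-SKA2-3, here hairpins 1, 2 and 3), a gene of the spindle and kinetochore complex. All 4 lines were made by lentiviral infection and puromycin selection, so the control line shares both with the knockdowns. Each line has 3 libraries, and the labels say neither whether these were separate cultures nor whether a line is 1 clone or a mixture of resistant cells. A difference between lines therefore cannot be told apart from a difference between hairpins.

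MEF2 proteins bind AT-rich DNA through a MADS box followed by the MEF2 domain and switch on genes of muscle, heart, vessels, neurons and immune cells. MEF2A and MEF2D are made in most cell types, while MEF2C is more restricted. Class IIa deacetylases bind the same domain through a short segment in their N-terminal part and bring the NCoR/SMRT corepressors, with HDAC3, to MEF2 target genes. When kinases such as CaMK, PKD and the salt-inducible kinases phosphorylate them, 14-3-3 proteins hold them in the cytoplasm and MEF2 is released from repression. HDAC9 is itself a known MEF2 target gene.

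The start of the coding sequence, where the family's shared DNA-binding part is encoded, is printed for MEF2C and MEF2D. MEF2A was not included, and no search was made for the stretch in which these genes are most alike. The first 171 coding bases from GENCODE v29 follow, with a capital letter wherever MEF2D has another base than MEF2C.
MEF2C: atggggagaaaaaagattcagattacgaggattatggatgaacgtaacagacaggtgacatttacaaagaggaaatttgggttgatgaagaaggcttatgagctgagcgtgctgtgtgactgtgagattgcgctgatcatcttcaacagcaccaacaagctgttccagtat
MEF2D: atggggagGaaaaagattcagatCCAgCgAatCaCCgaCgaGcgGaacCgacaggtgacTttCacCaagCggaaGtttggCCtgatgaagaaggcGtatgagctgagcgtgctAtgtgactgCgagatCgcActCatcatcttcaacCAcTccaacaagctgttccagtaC
MEF2D matched MEF2C at 82.5% of these bases, with a longest shared run of 19 bases.

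The segment of the 4 deacetylases that contacts MEF2 is the part that joins both families, and 54 coding bases over it are printed with capitals at the 17 bases that are identical in all 4 genes. The segment starts at codon 171 of HDAC4, 184 of HDAC5, 124 of HDAC7 and 146 of HDAC9 in the transcripts used.
HDAC4: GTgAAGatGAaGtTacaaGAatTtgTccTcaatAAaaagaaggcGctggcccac
HDAC5: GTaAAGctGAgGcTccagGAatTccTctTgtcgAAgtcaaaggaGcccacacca
HDAC7: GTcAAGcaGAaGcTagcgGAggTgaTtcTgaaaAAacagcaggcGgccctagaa
HDAC9: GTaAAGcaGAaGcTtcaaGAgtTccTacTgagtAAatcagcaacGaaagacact
Over the whole transcripts, no window of 50 bases was shared between any of the 7 members. At most 0.341% of a member's windows, in HDAC9, also occurred in a transcript of a gene outside the family. An exact match of that length therefore points to 1 member of the family.

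The expected counts per library summed to between 14693343 and 16739155. SKA2, the targeted gene, was at 126, 119 and 117 CPM (counts scaled to the size of the library after TMM) in the controls. It was between 22.3 and 28.0 CPM in the 9 knockdown libraries, so each library fitted its label as control or knockdown. The 3 hairpin lines overlapped in SKA2, which therefore cannot tell them apart. Of 6 epithelial markers, 5 exceeded 1 CPM on average, and the summed level of the 6 was 2502 to 3381 CPM in the controls. It was 2219 to 2318 CPM in the hairpin 1 libraries, 1017 to 1048 CPM in those of hairpin 2 and 1998 to 2662 CPM in those of hairpin 3. Of the 6 muscle markers measured, MYH3 and NKX2-5 exceeded 1 CPM on average, and the summed level was 25.4 to 32.7 CPM over all 12 libraries. MYOD1 and MYOG were not among the 17303 genes in the deposited table, nor were the neuronal marker STMN2 and the fibroblast marker LUM. The 6 endothelial markers summed to at most 1.33 CPM in any library, none averaging over 1 CPM. Blood markers summed to between 11.7 and 30.7 CPM, with CD79A and CD68 over 1 CPM on average, and were at 11.7 to 13.95 CPM with hairpin 2. Neuronal markers summed to 159 to 300 CPM (SYP, MAP2 and TUBB3 over 1 CPM) and fibroblast markers to 3.86 to 8.85 CPM, with COL1A1 alone over 1 CPM.

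The libraries also differed in how the level of a gene depended on its length. The slope of log2 CPM on log2 length, measured against the mean library, was −0.056, −0.24 and −0.32 in the control libraries, 0.082 to 0.11 in the hairpin 1 line, 0.15 to 0.20 in the hairpin 2 line, and 0.092, −0.12 and −0.17 in the hairpin 3 line. The first control library and the first hairpin 3 library thus stood apart from the other libraries of their lines. Results that rest on them are also given without both libraries, a choice made after these slopes were seen. The values with a length offset fitted for each library are given for the members, and for other genes where a call ended, a direction turned or a called value moved by more than 1.5 times.

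MEF2C, the member with the lowest level in CPM and in TPM, had a few reads in each control library and 27 to 50 in each knockdown library. Its levels were 0.380, 0.388 and 0.255 CPM in the controls, from 6, 6 and 4 reads. With hairpin 1 they were 2.55, 3.05 and 2.85 CPM. The hairpin 2 libraries held 2.48, 3.22 and 2.77 CPM, and those of hairpin 3 held 2.86, 1.71 and 2.91 CPM. Every knockdown library was above every control library, and the 3 hairpin lines overlapped one another, the second hairpin 3 library being the lowest of the 9.

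Summed over a line, MEF2C had 131 reads with hairpin 1, 129 with hairpin 2 and 117 with hairpin 3, against 16 in the controls. The ratio to the control, scaled to library size, was 8.80 with hairpin 1 (95% counting interval 5.22 to 15.8), 8.80 with hairpin 2 (5.22 to 15.9) and 7.65 with hairpin 3 (4.52 to 13.8). These intervals cover counting error only. The fitted log2 fold changes were 3.02 ± 0.29, 3.02 ± 0.29 and 2.84 ± 0.30 (SE). Between hairpins the log2 differences of MEF2C were 0.0039 for hairpin 2 minus hairpin 1 (95% interval −0.44 to 0.45), −0.18 for hairpin 3 minus hairpin 1 (−0.63 to 0.27) and −0.18 for hairpin 3 minus hairpin 2 (−0.63 to 0.27). These are values that the choice of MEF2C already used, and their intervals reach 0.63 on the log2 scale.

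In bulk RNA, more cells with MEF2C transcripts and more transcripts per cell cannot be told apart. With length offsets the log2 fold changes of MEF2C were 2.66, 2.56 and 2.68, and without the first control and first hairpin 3 libraries they were 3.10, 3.10 and 2.82.

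**Figure D1:**
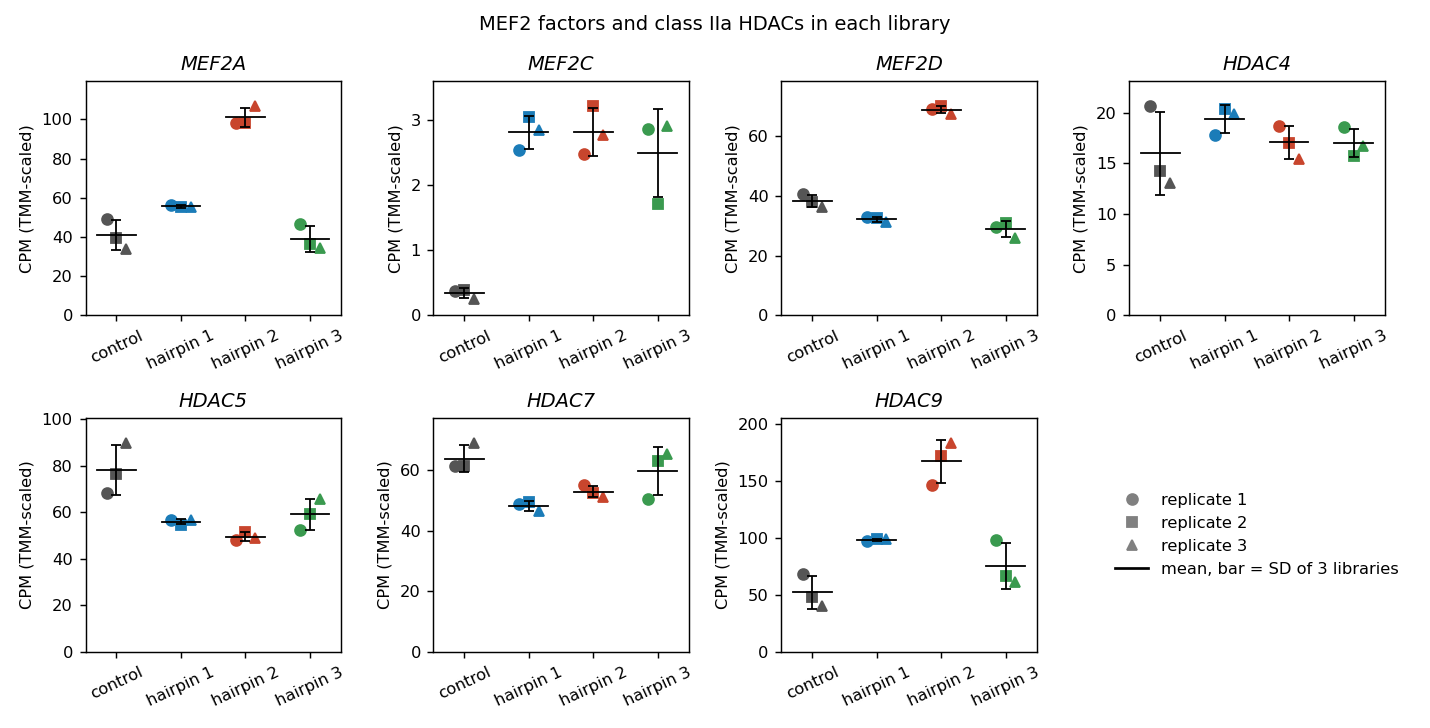
CPM of the 7 genes in each of the 12 libraries, with a vertical axis from 0 for each gene; points are libraries (shape marks the replicate number), the line is the mean and the bar the SD of 3 libraries. MEF2C is at 0.255 to 0.388 CPM in the controls and at 1.71 to 3.22 CPM in the knockdown libraries, while MEF2A, MEF2D and HDAC9 are highest with hairpin 2.

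MEF2A and MEF2D, the broadly made family members, did not follow MEF2C: both were highest with hairpin 2, and MEF2D was below the controls with the other hairpins. MEF2A was at 49.1, 39.3 and 33.9 CPM in the controls, 56.4, 55.2 and 55.4 with hairpin 1, 98.1, 98.01 and 107 with hairpin 2, and 46.6, 36.2 and 34.5 with hairpin 3. The order of the lines was hairpin 2, hairpin 1, control and hairpin 3, and only the last neighbouring pair overlapped. Against the control the log2 fold changes of MEF2A were 0.45 ± 0.13, 1.31 ± 0.13 and −0.06 ± 0.14 (SE) for hairpins 1, 2 and 3. The first control and the first hairpin 3 libraries were the highest of their lines.

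MEF2D was at 40.5, 37.8 and 36.4 CPM in the controls, 32.8, 32.5 and 31.1 with hairpin 1, 69.0, 70.0 and 67.5 with hairpin 2, and 29.7, 30.9 and 25.8 with hairpin 3. No library of hairpins 1 or 3 reached a control library, and every hairpin 2 library was above all others. The log2 fold changes of MEF2D were −0.25 ± 0.08, 0.85 ± 0.08 and −0.41 ± 0.08 (SE).

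Length offsets lowered these values. For MEF2A they became 0.09, 0.85 and −0.23, and for MEF2D −0.67, 0.31 and −0.60. Without the first control and first hairpin 3 libraries the values were 0.60, 1.46 and −0.044 for MEF2A and −0.21, 0.89 and −0.38 for MEF2D. The hairpin 2 line, in which both genes were highest, also had the lowest summed epithelial markers (1017 to 1048 CPM without TMM). It had the steepest positive length slopes as well (0.15 to 0.20). The part of either in these values was not tested.

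MEF2B, a family gene outside the chosen members, was at 1.58, 2.07 and 4.59 CPM in the controls, with means of 0.602, 1.19 and 0.873 CPM with hairpins 1, 2 and 3. The third control library stood above the others of its line. MEF2B fell by 2.18 (edgeR's quasi-likelihood test, Benjamini-Hochberg adjusted p = 0.0011), 1.21 (adjusted p = 0.011) and 1.65 (adjusted p = 0.0051) on the log2 scale. With length offsets the hairpin 2 value was −0.66 and did not pass (adjusted p = 0.0861), and on the log2(TPM + 1) scale it was −0.48 (limma adjusted p = 0.0608). Without the third control library the log2 values were −1.59, −0.62 and −1.06 (adjusted p 0.0014, 0.0498 and 0.0107). These counts are uncertain, since 73.9% of the exon bases of MEF2B belong also to the read-through gene BORCS8-MEF2B, which did not pass the test with any hairpin (adjusted p 0.0788, 0.350 and 0.394).

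Among the class IIa deacetylases, HDAC9 was higher in the hairpin lines and HDAC5 lower. HDAC9 was at 68.8, 48.4 and 40.3 CPM in the controls, 97.7, 99.0 and 99.2 with hairpin 1, 147, 172 and 184 with hairpin 2, and 98.4, 66.6 and 61.3 with hairpin 3. All libraries of hairpins 1 and 2 were above all controls, while hairpin 3 overlapped the control line: its second and its last library were below the first control library. Taken by replicate number, each hairpin 3 library was above the control library of that number. The log2 fold changes of HDAC9 were 0.91 ± 0.20, 1.68 ± 0.20 and 0.52 ± 0.20 (SE).

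HDAC9 was highest in the first and lowest in the third library of both the control line and the hairpin 3 line. Leaving out a library from only 1 of these lines thus moves the mean of that line and not of the other. Without the first hairpin 3 library the hairpin 3 log2 fold change of HDAC9 was 0.29, without the third control library it was 0.36, and without both first libraries it was 0.54. With length offsets the HDAC9 values were 0.67, 1.38 and 0.39.

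HDAC5 was at 68.5, 76.5 and 89.9 CPM in the controls, 56.6, 54.8 and 56.8 with hairpin 1, 48.1, 51.6 and 48.8 with hairpin 2, and 52.6, 59.5 and 65.9 with hairpin 3. Every knockdown library was below every control library, the third hairpin 3 library being the closest. The log2 fold changes of HDAC5 were −0.48 ± 0.10, −0.66 ± 0.10 and −0.40 ± 0.10 (SE), with length offsets −0.85, −1.13 and −0.57, and without the first control and first hairpin 3 libraries −0.58, −0.75 and −0.40.

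HDAC7, which is known for its part in vessels and developing T cells, differed less. It was at 61.3 to 69.1 CPM in the controls, and 50.7, 63.1 and 65.4 CPM in the hairpin 3 libraries. The hairpin 1 libraries held 46.5 to 49.6 CPM and the hairpin 2 libraries 51.3 to 55.1 CPM. The first hairpin 3 library lay with the other knockdown lines and the others closer to the controls. Its log2 fold changes were −0.40 ± 0.09, −0.27 ± 0.09 and −0.10 ± 0.09 (SE), and the hairpin 3 value was 0.0065 without that first library. With length offsets the HDAC7 values were −0.60, −0.49 and −0.20.

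HDAC4, a regulator of bone and muscle, had the lowest level of the 4 in CPM and in TPM and overlapping lines throughout. It ranged from 13.01 to 20.6 CPM in the controls, from 17.8 to 20.4 CPM in the hairpin 1 line, from 15.4 to 18.7 CPM in the hairpin 2 line and from 15.8 to 18.5 CPM in the hairpin 3 line. Its log2 fold changes were 0.27 ± 0.15, 0.09 ± 0.15 and 0.09 ± 0.15 (SE). The direction of HDAC4 turned with length offsets (−0.35, −0.69 and −0.20), and without the first control library its values were 0.50, 0.32 and 0.32. The direction of HDAC4 thus depended on the setting and the library.

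**Figure D2:**
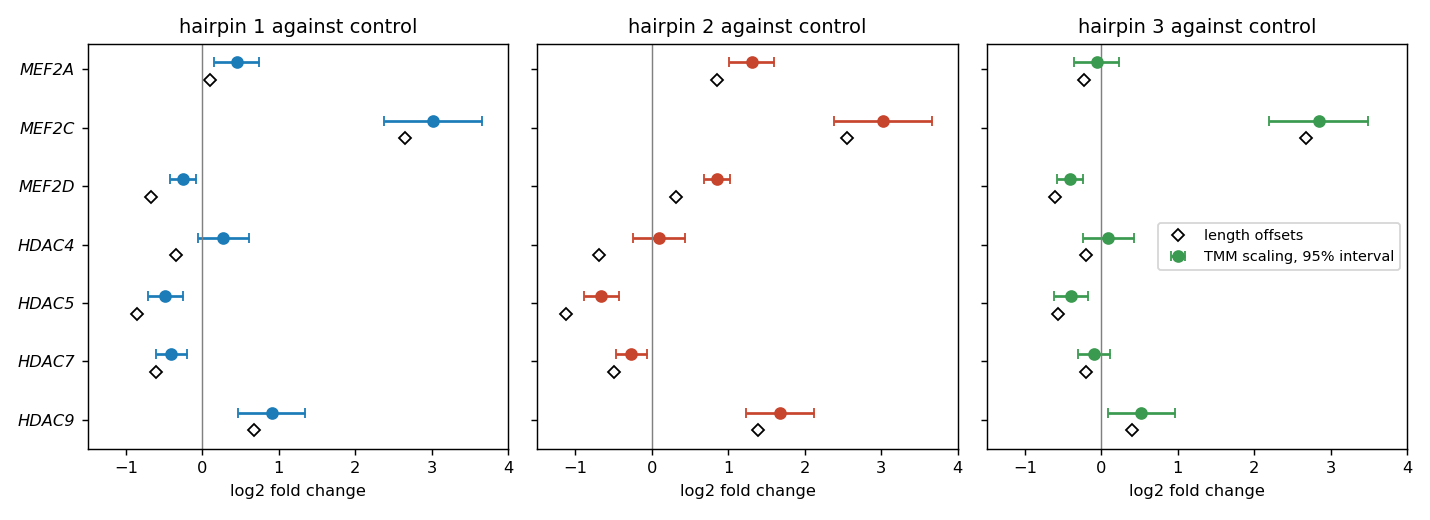
Log2 fold change of the 7 genes with each hairpin against the control: filled circles with 95% intervals are from the fit with TMM scaling, open diamonds from the fit with length offsets for each library. MEF2C is near 3 in all panels with TMM scaling, HDAC5 is below 0 and HDAC9 above 0 in all panels under both fits, and HDAC4 changes side with length offsets.

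Counting calls at an adjusted p under 0.05, 3 of the 7 genes were called higher with hairpin 1, where 31.5% of all 12868 tested genes were, and 3 lower, where 31.5% were. With hairpin 2, 4 were called higher and 2 lower, beside 36.6% and 37.8% of all genes. With hairpin 3, 2 were called higher and 2 lower, beside 23.6% and 24% of all genes. MEF2C is among the higher genes each time, as the choice of the members fixed. The median log2 fold change of the 7 was 0.27, 0.85 and −0.06, against 0.0059, −0.017 and 0.0086 over all tested genes. The 3 comparisons share the control libraries. Leaving out 1 library at a time gave 3 to 5 called members with hairpin 3 against the control, beside 4648 to 7395 genes. The higher call of HDAC9 with hairpin 3 was lost in most of these runs.

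Whether the hairpin lines differed from one another could be tested for the 6 members other than MEF2C. These tests compare lines over the spread of their libraries and cannot tell a hairpin from its line. Mean SKA2 was at 24.0, 25.3 and 26.6 CPM and did not pass the test between hairpin lines (edgeR adjusted p 0.473, 0.243 and 0.452). In hairpin 2 against hairpin 1, 3 of the 6 were called higher, beside 28.2% of all genes, and 0 lower, beside 29.4%. MEF2D was higher by 1.10 ± 0.08 on the log2 scale (SE; edgeR's quasi-likelihood test, adjusted p = 3.67e-07), MEF2A by 0.86 ± 0.13 (adjusted p = 0.000175) and HDAC9 by 0.77 ± 0.20 (adjusted p = 0.0056), with all 3 hairpin 2 libraries above all 3 hairpin 1 libraries for each gene. The log2 differences of HDAC4 (95% interval −0.51 to 0.15), HDAC5 (−0.41 to 0.050) and HDAC7 (−0.073 to 0.34) did not pass the test. Without the first control and first hairpin 3 libraries, HDAC5 (−0.18, adjusted p = 0.0236) and HDAC7 (0.14, adjusted p = 0.0456) passed as well. In that setting 9484 of all 12868 tested genes were called. With length offsets 4 members passed, beside 8531 genes called. MEF2D (0.98), MEF2A (0.76) and HDAC9 (0.71) were then higher with hairpin 2, and HDAC4 was lower (−0.35, adjusted p = 0.0151).

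In hairpin 3 against hairpin 2, 3 of the 6 were called lower, beside 31.9% of all genes, and 1 higher, beside 33.4%. MEF2A was lower by a log2 difference of −1.37 ± 0.13 (SE; adjusted p = 4.61e-06), MEF2D by −1.26 ± 0.08 (adjusted p = 1.28e-07) and HDAC9 by −1.15 ± 0.20 (adjusted p = 0.00035). HDAC5 was higher by 0.26 ± 0.10 (adjusted p = 0.0446), with its 3 libraries above those of hairpin 2. This HDAC5 call was lost with DESeq2 size factors (adjusted p = 0.0577), in the DESeq2 test (0.0561), with no filter on low counts (0.0544) and in a fit of the 2 lines alone (0.0502), and the value turned to −0.024 on the log2(TPM + 1) scale. It was also lost on leaving out any 1 of 9 libraries (the second control, the second or the third of hairpin 3, or any library of hairpins 1 and 2), with adjusted p from 0.0586 to 0.178. The differences of HDAC4 (95% interval −0.34 to 0.33) and HDAC7 (−0.034 to 0.38) did not pass, although HDAC7 passed without the first hairpin 3 library (0.28, adjusted p = 0.0065). With length offsets all 6 members passed, beside 8791 of all 12868 tested genes. MEF2A (−1.08), MEF2D (−0.91) and HDAC9 (−0.99) were then lower with hairpin 3. HDAC5 (0.56, adjusted p = 0.0086), HDAC4 (0.49, adjusted p = 0.0017) and HDAC7 (0.30, adjusted p = 0.0432) were higher.

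Hairpin 3 against hairpin 1 had the fewest genes called of all pairs with all libraries, 4.75% higher and 4.7% lower. This low count rested on the first hairpin 3 library. Without it, 5261 genes were called in this comparison and 5294 in hairpin 3 against the control. Without the first control and first hairpin 3 libraries, these counts were 7400 and 7705. Of the 6 members, MEF2A alone was called, lower by a log2 difference of −0.51 ± 0.13 (SE; adjusted p = 0.0392), and 0 were called higher. HDAC7, with all hairpin 3 libraries above those of hairpin 1, was at 0.31 ± 0.09 (adjusted p = 0.0622), and HDAC9 was at −0.39 ± 0.20 (adjusted p = 0.201). MEF2D (95% interval −0.33 to 0.013), HDAC4 (−0.52 to 0.15) and HDAC5 (−0.14 to 0.31) did not pass.

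These calls depended on single libraries. That of MEF2A was lost on leaving out any 1 of 9 libraries, the second control, the second or the third of hairpin 3 or any of hairpins 1 and 2 (adjusted p 0.0552 to 0.157), and without the first hairpin 3 library both HDAC7 (0.43, adjusted p = 0.0034) and HDAC9 (−0.61, adjusted p = 0.0165) passed. HDAC7 also passed without the first (adjusted p = 0.0411) or the third (adjusted p = 0.0495) control library. Without the first control and first hairpin 3 libraries, 5 of the 6 members were called, beside 7400 of all 12868 tested genes. MEF2A (−0.64), HDAC9 (−0.61) and HDAC4 (−0.24) were lower and HDAC7 (0.42) and HDAC5 (0.17) higher. With length offsets MEF2A (−0.32, adjusted p = 0.0057) and HDAC7 (0.41, adjusted p = 0.042) passed, beside 1789 genes called. A fit of the 2 lines alone called 0 members and 331 genes, with MEF2A at an adjusted p of 0.0631.

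TPM, the abundance deposited by the authors that is scaled by transcript length and library, allows the levels of different genes to be set side by side. Of the 3 MEF2 genes chosen, MEF2A and MEF2D made up nearly all of the summed TPM, and MEF2C was a small share in every library. MEF2B, which is not in this sum, was at 3.32 ± 1.58 TPM in the controls and at 0.980 ± 0.24, 1.99 ± 0.43 and 1.21 ± 0.24 TPM with hairpins 1, 2 and 3 (SD, n = 3 each). Over all 4 MEF2 genes MEF2B was 7.75, 11.3 and 23.5% of the TPM in the control libraries, above MEF2C in each, and 2.35 to 6.17% in the knockdown libraries. The summed level of the 3 MEF2 genes was 21.3 ± 5.32 TPM in the controls, 31.7 ± 0.64 with hairpin 1, 62.4 ± 3.83 with hairpin 2 and 21.2 ± 4.81 with hairpin 3 (SD, n = 3 each). MEF2C was 0.358 to 0.452% of it in the controls. Its share was 2.88 to 3.55% in the hairpin 1 line, 1.47 to 1.99% in the hairpin 2 line and 2.53 to 4.33% in the hairpin 3 line. Within each line MEF2A had the larger mean share, from 53.3% in the controls to 63.7% with hairpin 1.

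The order of the deacetylases by their share of the summed TPM differed between lines. In the controls HDAC7 (36.3% ± 2.69 of the 4, SD, n = 3) and HDAC5 (33.2% ± 4.95) led, with HDAC9 at 26.3% ± 6.74 and HDAC4 at 4.16% ± 0.90, and the ranges of HDAC5 and HDAC7 overlapped. In the hairpin 1 libraries HDAC9 was 47.2 to 47.6% and in the hairpin 2 libraries 56.9 to 63.5%, the largest share in each library of both lines. With hairpin 3 its share was 47.0% in the first library and 30.9% at the lowest. The ratio of HDAC9 to HDAC5 was 1.19, 0.759 and 0.524 in the 3 controls and 2.22, 1.32 and 1.11 in the hairpin 3 libraries. It was 2.08 to 2.16 in the hairpin 1 line and 3.64 to 4.50 in the hairpin 2 line. The first control library was above the third hairpin 3 library, so these lines overlap in the ratio. Taken by replicate number, each hairpin 3 library was above the control library of that number. The labels do not say whether these numbers pair the libraries.

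The summed TPM of the 4 deacetylases divided by that of the 3 MEF2 factors was 2.91 to 3.60 in the controls. It was 2.88 to 2.92 in the hairpin 1 line, 1.94 to 2.11 in the hairpin 2 line and 3.31 to 3.98 in the hairpin 3 line. All 3 hairpin 2 libraries were below every other library, while the control line overlapped those of hairpins 1 and 3. These ratios are within a library, and 3 libraries against 3 cannot reach an exact permutation p of 0.05.

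**Figure D3:**
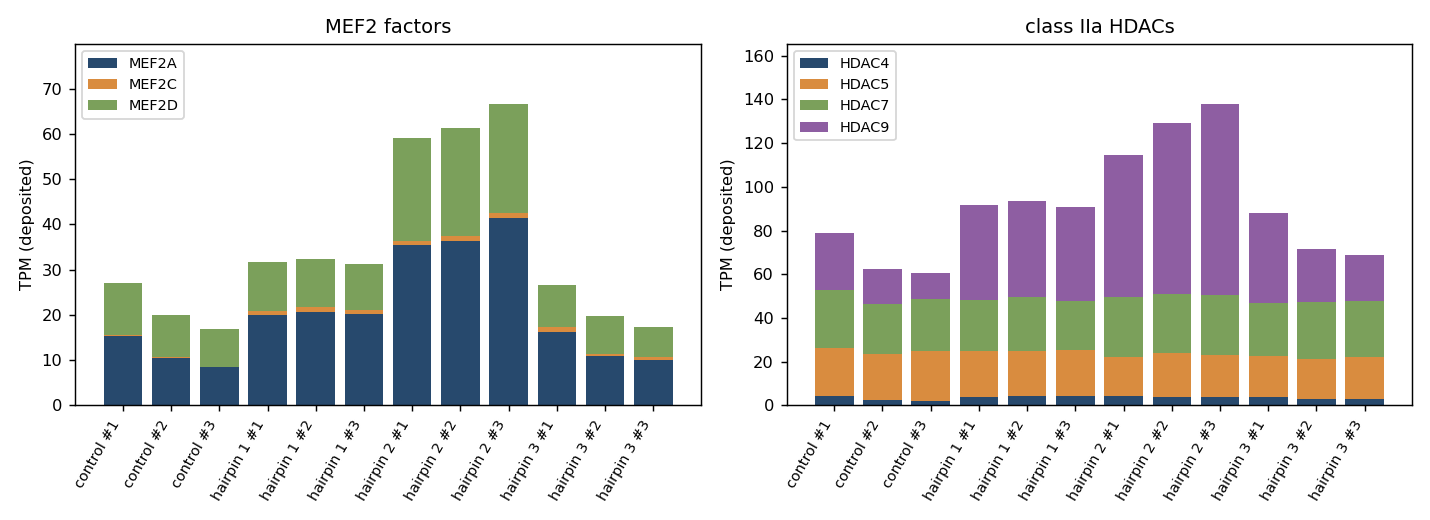
Stacked deposited TPM of the 3 MEF2 factors (left) and the 4 class IIa deacetylases (right) in each of the 12 libraries, named by line and replicate number. MEF2C is a thin band throughout, at most 4.33% of the MEF2 sum, and HDAC9 is the largest band in all libraries of hairpins 1 and 2.

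The members lie on 7 chromosomes (GRCh38, GENCODE v29). MEF2C spans bases 88717117 to 88904257 of chromosome 5 on the minus strand, and HDAC9 spans 18086949 to 19002416 of chromosome 7 on the plus strand. MEF2A is at 99565417 to 99716466 of chromosome 15 (plus), MEF2D at 156463727 to 156500828 of chromosome 1 (minus), HDAC4 at 239048168 to 239401654 of chromosome 2 (minus), HDAC5 at 44076746 to 44123702 of chromosome 17 (minus) and HDAC7 at 47782722 to 47833132 of chromosome 12 (minus). The library protocol names no step that keeps the strand, so reads from antisense neighbours cannot be told apart where exons overlap. Such overlap covers 11.1% of the exon bases of MEF2A (LYSMD4), 5.36% of MEF2C (its antisense genes MEF2C-AS1 and MEF2C-AS2), 11.2% of HDAC7 (SLC48A1 among others) and 0.756% of HDAC4.

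The transcript length implied by the deposited counts and FPKM, which would shift with a change to isoforms of another length, differed from the control by at most 3.59%, for HDAC4 with hairpin 1. MEF2C was left out of this comparison because its FPKM was under the minimum of 1. The other members with FPKM of 1 or more differed by between −1.53% and 0.958%.

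Of the 14 nearest measured genes that do not overlap the member, 1 on either side of each, 13 were tested in the same fit, and their directions varied. Their distances ran from 401 bases (G6PC3 from HDAC5) to 1488003 bases (CETN3 from MEF2C). RHBG, on the left of MEF2D, did not pass the filter on low counts. Beside MEF2A, LRRC28 (0.10, 0.055 and 0.15) and ADAMTS17 (−0.047, −0.48 and −0.26) did not pass with any hairpin. With length offsets ADAMTS17 passed with each (−0.51, −1.06 and −0.48), and LRRC28 with hairpin 2 turned to −0.029. ASB1, on the left of HDAC4, had among the greatest changes of these neighbours and fell by 1.14, 2.06 and 1.58 on the log2 scale with hairpins 1, 2 and 3 (adjusted p 8.08e-08, 5.22e-10 and 9.47e-09). On the other side of HDAC4, NDUFA10 fell with hairpins 1 and 2 (−0.39 and −0.73) and was at −0.18 with hairpin 3 (adjusted p = 0.074; 0.0467 with length offsets). Beside HDAC7, RAPGEF3 fell with hairpins 1 (−1.19, adjusted p = 0.0029) and 3 (−0.81, adjusted p = 0.0222), and VDR, the vitamin D receptor gene, was at 0.20, 0.028 and 0.10. With length offsets VDR turned to −0.056, −0.29 and −0.031, and it passed only there, with hairpin 2 (adjusted p = 0.019). Beside MEF2C, TMEM161B had log2 fold changes of −0.012, 0.62 and −0.16 and CETN3 0.11, −0.42 and 0.64. With length offsets TMEM161B was at 0.027 with hairpin 1, and CETN3 was at −0.21 with hairpin 2 and passed also with hairpin 1 (0.25, adjusted p = 0.0151). Next to MEF2D, IQGAP3, a scaffold protein gene, fell by 0.92, 2.39 and 0.95 on the log2 scale with hairpins 1, 2 and 3 (adjusted p 2.98e-05, 7.59e-09 and 2.42e-05). HDAC5 had lower values with each hairpin, and both its neighbours fell with each hairpin, G6PC3 by −0.88, −1.18 and −0.91 and HROB by −0.80, −1.15 and −0.58. With length offsets G6PC3 was at −0.51, −0.66 and −0.72. Of the neighbours of HDAC9, POLR1F rose with each hairpin (0.51, 0.38 and 0.46; adjusted p 0.0095, 0.0299 and 0.0208), and SNX13 rose with hairpins 1 (0.85, adjusted p = 0.0032) and 2 (1.15, adjusted p = 0.00023). With length offsets SNX13 was at 0.51 and 0.72 with these hairpins, and POLR1F with hairpin 2 did not pass (0.21, adjusted p = 0.115).

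Other genes with a pattern like that of each member were ranked by Pearson's r of log2 CPM over the 12 libraries over the 12127 tested genes that averaged 1 CPM or more. These libraries share lines and length slopes, and the values are a description. Closest to MEF2C were CCDC170 (0.978), FILIP1L (0.976), GOLM1 (0.974), ZNF101 (0.974), NKD1 (0.974) and EFNB2 (0.973). FILIP1L had means of 2.11 CPM in the controls and 10.8, 10.4 and 9.56 CPM with hairpins 1, 2 and 3, and EFNB2, an ephrin ligand gene, had 54.1 against 176, 174 and 140 CPM. Closest to MEF2A were ZFC3H1 (0.999) and EMSY (0.997), to MEF2D TM9SF2 (0.991) and UGCG (0.990), to HDAC4 NOMO2 (0.935) and GANAB (0.924), to HDAC5 REEP2 (0.992) and DMKN (0.990), to HDAC7 SSR4 (0.963) and CUEDC1 (0.956), and to HDAC9 ACSL4 (0.999) and ATP11B (0.997). Among the members, HDAC9 ran with MEF2A (r = 0.936) and against HDAC5 (r = −0.927), while MEF2C and MEF2D were nearly unrelated (r = 0.089).

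The genes that act on or with these proteins were tested in the same fit, and their counts stand beside the shares of all genes called that are given above (31.5% each way with hairpin 1, 36.6% higher and 37.8% lower with hairpin 2, 23.6% higher and 24% lower with hairpin 3). List medians stand beside 0.0059, −0.017 and 0.0086 over all tested genes. With length offsets, 3768, 4690 and 3498 of all 12868 genes were called higher and 3974, 4788 and 3612 lower with hairpins 1, 2 and 3. Of the 7 other zinc-dependent deacetylases (classes I, IIb and IV), 0 were called higher and 2 lower with hairpin 1, 0 and 5 with hairpin 2, and 1 and 2 with hairpin 3 (medians −0.058, −0.36 and −0.050 on the log2 scale). HDAC11 fell by 0.98 ± 0.17, 0.71 ± 0.17 and 0.89 ± 0.17 (log2, SE; adjusted p 0.00068, 0.0025 and 0.0015), and HDAC10, a polyamine deacetylase, fell by 0.69, 0.53 and 0.53 (adjusted p 0.0027, 0.0081 and 0.0153). With length offsets this list had 3 higher and 2 lower with hairpin 1, 2 and 3 with hairpin 2, and 3 and 2 with hairpin 3. Of the 7 sirtuins, the NAD-dependent deacetylases, 0, 2 and 0 were called higher and 5, 3 and 2 lower, SIRT5 in all 3 lines (−0.20, −0.48 and −0.31; adjusted p 0.0418, 0.00021 and 0.0084). Without the first control and first hairpin 3 libraries SIRT5 with hairpin 1 did not pass (adjusted p = 0.0578). The sirtuin medians were −0.30, −0.10 and −0.28, and with length offsets that of hairpin 2 was 0.27, with 1, 4 and 1 sirtuins higher and 4, 3 and 2 lower.

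The NCoR/SMRT corepressor list of 7 genes, which includes HDAC3, was divided. It had 2 higher and 2 lower with hairpin 1, 3 and 2 with hairpin 2, and 1 and 3 with hairpin 3, with medians of 0.031, −0.16 and −0.051. With length offsets it had 1 higher and 3 lower with hairpin 1, 3 and 3 with hairpin 2, and 1 and 3 with hairpin 3. TBL1XR1, an exchange factor of the complex, rose in all 3 lines, from a mean of 82.1 CPM to 152, 158 and 128 CPM (log2 0.89, 0.94 and 0.64; adjusted p 0.00042, 0.0001 and 0.0038). With length offsets these TBL1XR1 values were 0.38, 0.30 and 0.40, all still past the test.

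Of the kinases that phosphorylate class IIa deacetylases or stand upstream of those, 15 of 23 were tested. Of these, 8 were called higher and 3 lower with hairpin 1, 8 and 5 with hairpin 2, and 5 and 3 with hairpin 3, with medians of 0.18, 0.27 and 0.013. SIK2, a salt-inducible kinase, rose from a mean of 33.9 CPM to 82.1, 110 and 69.7 CPM (log2 1.27 ± 0.16, 1.70 ± 0.16 and 1.04 ± 0.16, SE; adjusted p 7.97e-05, 2.57e-06 and 0.00036). SIK3 (0.48, 0.63 and 0.50) and CAMK2D (0.83, 1.57 and 0.40) also rose in all 3 lines, and MARK3 fell by 0.37, 0.19 and 0.32. With length offsets SIK2 was at 0.72, 0.99 and 0.78 and SIK3 at 0.086, 0.13 and 0.31, the first of which did not pass (adjusted p = 0.146), and the list had 5 higher and 5 lower, 6 and 6, and 4 and 5.

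The 14-3-3 proteins, which bind the phosphorylated deacetylases, had 2 of 7 higher and 4 lower with each hairpin (medians −0.21, −0.33 and −0.16). YWHAG rose from a mean of 244 CPM to 395, 513 and 362 CPM (log2 0.69, 1.07 and 0.57; adjusted p 0.00075, 1.26e-05 and 0.0033). SFN, the epithelial form, fell from 158 to 88.8, 87.7 and 89.4 CPM (−0.83, −0.85 and −0.82; adjusted p 0.0014, 0.00064 and 0.0021). YWHAE (−0.35, −0.33 and −0.20) and YWHAB (−0.21, −0.52 and −0.16) fell as well. With length offsets SFN was at −0.42, −0.28 and −0.62, and YWHAE did not pass with any hairpin (−0.11, 0.0073 and −0.069). The counts of this list then were 2 higher and 2 lower, 3 and 3, and 2 and 2.

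Among the kinases, phosphatases and NFAT factors that activate MEF2 or act with it, 15 of 16 were tested and both directions were frequent: 6 higher and 5 lower, 6 and 8, and 6 and 6 (medians −0.13, −0.24 and −0.14). The 2 p38 kinases named by the rule went opposite ways. Of the other p38 kinases, MAPK12 fell with each hairpin (−0.60, −1.41 and −0.49, edgeR adjusted p 0.0037, 5.14e-06 and 0.0147). MAPK13 passed only with hairpin 2 (−0.13, −0.78 and −0.017, adjusted p 0.113, 1.83e-06 and 0.861). For MAPK12 and MAPK13 the values with length offsets are not given. MAPK14 (p38 alpha) rose from 46.7 to 70.4, 73.3 and 71.4 CPM (log2 0.59, 0.65 and 0.61; adjusted p 0.00024, 4.14e-05 and 0.00021), and MAPK11 (p38 beta) fell from 39.3 to 17.2, 10.5 and 20.5 CPM (−1.19, −1.90 and −0.94; adjusted p 0.00011, 1.18e-06 and 0.00055). NFATC3, a calcineurin-controlled factor, rose by 1.37, 1.73 and 1.09, and MAP2K5, the kinase upstream of ERK5, fell by 0.66, 0.65 and 0.53 on the log2 scale. The hairpin 2 value of MAP2K5 was −0.38 with length offsets.

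The coactivators and partners of MEF2 had more genes called higher than lower with each hairpin. Of 11 tested, 9 were called higher and 1 lower with hairpin 1, 8 and 1 with hairpin 2, and 4 and 1 with hairpin 3, with medians of 0.66, 1.38 and 0.39 on the log2 scale. NCOA2, a coactivator of the p160 group, rose from 16.6 to 47.5, 87.1 and 38.7 CPM (1.51 ± 0.23, 2.39 ± 0.23 and 1.21 ± 0.23, SE; adjusted p 0.00029, 3.15e-06 and 0.0015). VGLL4 (0.39, 1.46 and 0.43) and MRTFA (0.32, 1.38 and 0.21) rose in all 3 lines, while CARM1, an arginine methyltransferase that acts with NCOA2, fell by 0.21, 0.72 and 0.40. CABIN1, known as a corepressor of MEF2, was among the genes called higher with hairpins 1 (0.43, adjusted p = 0.00034) and 3 (0.29, adjusted p = 0.0044).

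The counts of this list depended on the length slopes. With length offsets it had 4 higher and 2 lower with hairpin 1, 6 and 3 with hairpin 2, and 3 and 1 with hairpin 3, with medians of 0.16, 0.87 and 0.086. NCOA2 with hairpin 1 was then at 0.90. MRTFA (0.067 and 0.091) and CABIN1 (−0.15 and 0.019) with hairpins 1 and 3 no longer passed, and CABIN1 with hairpin 2, at 0.062 before, was called lower (−0.66). Without the first control and first hairpin 3 libraries the hairpin 3 count was 8 higher and 1 lower, beside 3977 and 3728 of all genes.

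Genes known as MEF2 targets in muscle, neurons or immune cells showed no common direction. Of 29, 16 were tested, and 5 were called higher and 7 lower with hairpin 1, 5 and 5 with hairpin 2, and 2 and 6 with hairpin 3, with medians of −0.016, −0.16 and −0.034. HDAC9 is one of them and is counted here too. With length offsets the counts were 2 higher and 8 lower, 5 and 8, and 3 and 6. The 4 named by the rule all fell: MMP10, a matrix metalloproteinase gene, from 13.9 to 4.39, 1.14 and 3.53 CPM (−1.66 ± 0.11, −3.59 ± 0.14 and −1.97 ± 0.12, SE; adjusted p 6.56e-07, 2.33e-09 and 1.89e-07), and KLF2 from 8.40 to 4.43, 0.899 and 4.87 CPM (−0.92, −3.21 and −0.78). The immediate early genes JUN (−1.24, −0.67 and −0.31) and EGR1 (−1.66, −0.76 and −0.21) fell least with hairpin 3, where EGR1 did not pass without the first control and first hairpin 3 libraries (adjusted p = 0.054).

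**Figure D4:**
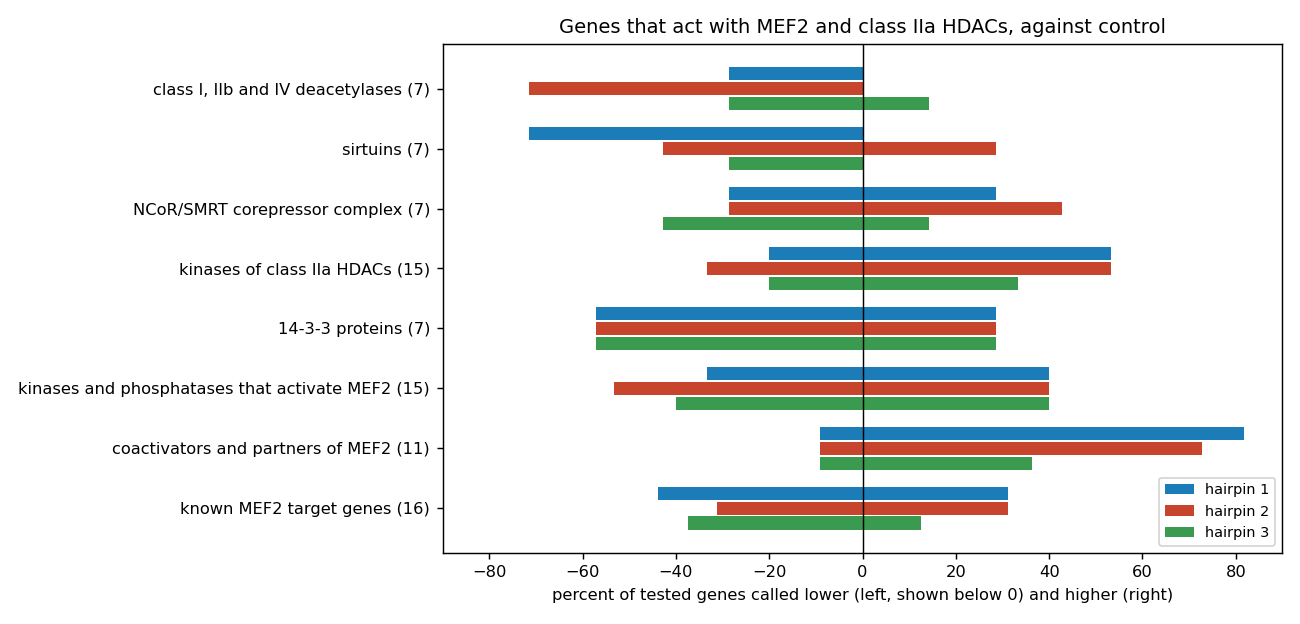
Percent of the tested genes of each list called lower (left of 0) and higher (right of 0) with each hairpin against the control, at an adjusted p under 0.05; the number of tested genes is in brackets. The bars of the coactivators and partners reach farthest right for hairpins 1 (9 of 11 genes) and 2 (8 of 11), while for hairpin 3 (4 of 11) that of the kinases and phosphatases that activate MEF2 (6 of 15) is longer, and those of the MEF2 target genes lie on both sides of 0.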

How the data were processed

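Polyadenylated RNA of 12 SNU638 libraries was fragmented, primed with random hexamers and sequenced, per the labels' protocols. The authors deposited 1 table with expected counts, FPKM and TPM for each library, per the file headers, and used HISAT, Bowtie2, RSEM and DESeq2 with GRCh38.p13, per the submitters' processing notes; their roles and versions were not stated. A further 15 columns of the authors' averages were not used. Longer transcripts give more reads, so a shift of the length slope between libraries moves long and short genes apart.

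The rounded expected counts went into edgeR 4.0.16 (R 4.3.3). After the expression filter on the 4 lines, 12868 genes were scaled by TMM and fitted by quasi-likelihood with 1 factor for the line (8 residual degrees of freedom, common biological coefficient of variation 0.111). All 6 pairs of lines were compared, two-sided, with Benjamini-Hochberg adjustment over all tested genes and calls at an adjusted p under 0.05. An SE is the absolute log2 change divided by the square root of the F statistic. The p-values describe the spread among libraries of a line, and that spread may be only technical. The script was tested on simulated data.

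The 7 members, the lists of related genes and the rule for names (from each list at most 4 genes called in 1 direction with all 3 hairpins, by the smallest of their largest adjusted p; the 6 genes most like MEF2C and 2 for each other member; the nearest gene on each side) were chosen with earlier results of these data known. CABIN1, MAPK12 and MAPK13 were named after their values were seen. Neighbours were taken among genes that do not overlap the member. Symbols came from the table, and 17091 of 17303 Entrez identifiers matched GENCODE v29, which gave positions and sequences. DESeq2 1.42.0, limma 3.58.1 on log2(TPM + 1), other scaling, no filter, fewer lines or libraries, a replicate block and length offsets (a smooth of each library over log2 length, span 0.3) were tried as alternatives.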

Additional observations from a re-analysis of the deposited data

Results flagged for a closer look

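MEF2A, MEF2D and HDAC9 differed between hairpin lines by edgeR's quasi-likelihood test, and HDAC5 passed in 1 comparison. Since both lines of each such comparison are set against the same control libraries, the difference of their effects is the difference between the lines. Hairpin 2 stood above hairpin 1 for MEF2D (1.10 on the log2 scale, adjusted p = 3.67e-07), MEF2A (0.86, adjusted p = 0.000175) and HDAC9 (0.77, adjusted p = 0.0056). Hairpin 3 stood below hairpin 2 for MEF2A (−1.37, adjusted p = 4.61e-06), MEF2D (−1.26, adjusted p = 1.28e-07) and HDAC9 (−1.15, adjusted p = 0.00035), and above it for HDAC5 (0.26, adjusted p = 0.0446). The HDAC5 call was lost with DESeq2 size factors (adjusted p = 0.0577), in the DESeq2 test (0.0561), with no filter on low counts (0.0544) and in a fit of the 2 lines alone (0.0502). Hairpin 3 stood below hairpin 1 for MEF2A (−0.51, adjusted p = 0.0392), a call lost in a fit of the 2 lines alone (adjusted p = 0.0631). Leaving out single libraries also ended each of these calls of HDAC5 and of MEF2A. Against the control, MEF2D was above in all 3 libraries of hairpin 2 and below in all libraries of hairpins 1 and 3.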

How the results depend on the processing

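In each alternative run, MEF2C was higher with each hairpin than in the controls, MEF2D and MEF2A were higher with hairpin 2 than with hairpins 1 and 3, and HDAC9 was higher than in the controls with each hairpin. The directions of HDAC4 depended on the setting: with length offsets its log2 differences from the control were −0.35, −0.69 and −0.20 for hairpins 1, 2 and 3, and those of hairpin 3 from hairpins 1 and 2 were 0.15 and 0.49. With no filter on low counts that of hairpin 3 from hairpin 2 was 0.0064. Length offsets also turned MEF2D, hairpin 3 against hairpin 1, to 0.069, and gave 2 called members and 1789 called genes in that comparison.

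On the log2(TPM + 1) scale the median over all genes moved to 0.29, 0.33 and 0.12 for hairpins 1, 2 and 3 against the control, and to −0.19 and −0.22 for hairpin 3 against hairpins 1 and 2. The share of calls that were higher moved from 49.98%, 49.2% and 49.6% to 78.9%, 71.7% and 60.9%, and from 50.2% and 51.1% to 15.4% and 30.3%. On that scale MEF2C was at 0.89, 0.93 and 0.68 with the 3 hairpins. Its mean TPM was 0.087 in the controls and 1.02, 1.08 and 0.75 with hairpins 1, 2 and 3. At such levels the added 1 makes the change smaller. MEF2D with hairpin 1 was at 0.11 on the log2(TPM + 1) scale, HDAC7 with hairpins 2 and 3 at 0.16 and 0.048 and MEF2A with hairpin 3 at 0.11. For hairpin 3 HDAC5 was at −0.13 against hairpin 1 and at −0.024 against hairpin 2, and HDAC7 at −0.12 against hairpin 2. Relative to the median shift, 40 of the 42 member values had the sign of the count fit. With hairpin 3 against the control, 2 members and 5290 genes were called on this scale.

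Fitting only the 2 lines compared gave 2 members and 3428 genes called for hairpin 3 against control. It gave 5 members and 9663 genes for hairpin 2 against hairpin 1, and 0 members and 331 genes for hairpin 3 against hairpin 1. DESeq2 called 2 members and 1955 genes in the last comparison. Without the first control and first hairpin 3 libraries, 5 members were called in hairpin 2 and in hairpin 3 against hairpin 1. These stand beside 9484 and 7400 genes called. Leaving out 1 library at a time gave 0 to 3 members and 238 to 5261 genes in that comparison, against 1 member and 1216 genes with all libraries; 5261 genes were called without the first hairpin 3 library and 2642 without the first control library. The log2 values ranged from −0.034 to 0.32 and from −0.039 to 0.32 for HDAC4 with hairpins 2 and 3, from −0.21 to 0.094 for MEF2A and −0.17 to 0.0065 for HDAC7 with hairpin 3, and from −0.075 to 0.063 for HDAC4, hairpin 3 against hairpin 2. The cause of these shifts was not tested.

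The labels do not say whether libraries with the same replicate number belong together. The correlation of same-numbered libraries' deviations from their lines had a median of −0.033 (−0.25 to 0.73), above 0.1 in 3 of 18 pairs, and 5 of 12 libraries correlated best with their own number. Pairs with unlike numbers had a median of 0.020 (−0.67 to 0.39). The length slopes fell in the same order by number in the control line (−0.056, −0.24 and −0.32) and the hairpin 3 line (0.092, −0.12 and −0.17). A block by number fits the same shift in all lines, so it cannot cover a shift that only some lines share. Whether such libraries were handled together was not tested. With a replicate block 6, 6, 4, 3, 1 and 4 members were called, as without it, and 8204, 9635, 6301, 7582, 1351 and 8532 genes in the 6 comparisons. MEF2C, at 4 to 6 reads in the controls, is the member whose level depth limits most.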
